A study of Mus musculus with 13 samples.

Results

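The 33 genes described here encode proteins that copy the genome and divide the cell. They were selected by gene symbol and role, 22 for mitosis and 11 for DNA replication, and not by a threshold on measured values. All 33 were found among the 23217 genes of the deposited table. All 33 also reached a mean of at least 1 FPKM (the fragments of a gene divided by transcript length and by the library's mapped total), the limit above which 12755 genes were tested.

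Polyadenylated RNA had been sequenced from 13 samples of mouse embryo at embryonic day 9.5 on a C57BL/6J background. Each sample is called an embryo here, although the labels do not say whether it held 1 embryo or a pool. The labels sort them into 3 xHet and 10 xHomo embryos and do not spell out either genotype name. The series is about Tet1, a dioxygenase that oxidizes 5-methylcytosine, and the erasure of parental imprints. Which parent or embryo carried a Tet1 allele is not stated in the labels. Litter, sex and batch are not in the labels, so p-values here speak only of the variation among these samples, which may be technical. In whole embryos a lower level in each cell and a smaller share of cells that express the gene cannot be told apart.

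As background, cyclins switch cyclin-dependent kinases on and off in order through the cell cycle. Cyclin E works at the entry into S phase, where the MCM helicase opens DNA and the clamp PCNA holds the polymerase, and cyclins A and B with CDK1 drive mitosis. Genes of S phase are classically controlled by E2F factors, which bind GC-rich sites. Many genes of mitosis carry a CHR element beside CCAAT boxes, through which the DREAM and MuvB complexes act late in the cycle. Both sets are known as transcripts of dividing tissue.

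Promoters of both classes are shown because of the motifs known for such genes, and no test compared the classes. RefSeq windows on GRCm38.p6, from 250 bases before to 50 after the start, were found for 28 of the 33 genes (Ccna2, Aurkb, Kif20a, Mcm4 and Ccne2 had none). Motifs were searched on both strands and overlapping matches were counted. The CHR letters TTTGAA stood in the windows of 14 of 19 mitotic genes and 1 of 9 replication genes (Mcm2), against 17.9% of all 32851 windows. CCAAT stood in 17 of 19 mitotic and 7 of 9 replication genes, against 37.4% of all windows. Of the E2F forms, TTTGGCGC, TTTCCCGC and TTTCGCGC were searched, which 0.514%, 1.07% and 0.323% of all windows held. Any of these 3 forms stood in 4 of 9 replication genes (Mcm3, Mcm5, Mcm6 and Mcm7) and 1 of 19 mitotic genes (Cdk1), against 1.84% of all windows. A match is a description of letters and not of binding. The 250 bases before the start are printed for the 3 mitotic genes with most matches and for 3 of the 4 replication genes that tied at 5 matches, those with an E2F form before the start, a tie broken after the letters were seen, with all motif matches in capitals.
Top2a (chr11:99024190-99024439, minus strand): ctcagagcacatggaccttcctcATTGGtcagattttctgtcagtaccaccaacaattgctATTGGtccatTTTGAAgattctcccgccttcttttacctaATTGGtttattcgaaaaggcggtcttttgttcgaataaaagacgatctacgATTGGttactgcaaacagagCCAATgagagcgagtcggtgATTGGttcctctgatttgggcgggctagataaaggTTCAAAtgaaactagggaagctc
Ube2c (chr2:164769679-164769928, plus strand): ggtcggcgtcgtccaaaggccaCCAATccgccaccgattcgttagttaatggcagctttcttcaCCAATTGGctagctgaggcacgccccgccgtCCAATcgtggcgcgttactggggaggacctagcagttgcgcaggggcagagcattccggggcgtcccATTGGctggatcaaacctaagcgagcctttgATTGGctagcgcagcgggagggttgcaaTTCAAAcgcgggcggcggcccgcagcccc
Cdk1 (chr10:69352913-69353162, minus strand): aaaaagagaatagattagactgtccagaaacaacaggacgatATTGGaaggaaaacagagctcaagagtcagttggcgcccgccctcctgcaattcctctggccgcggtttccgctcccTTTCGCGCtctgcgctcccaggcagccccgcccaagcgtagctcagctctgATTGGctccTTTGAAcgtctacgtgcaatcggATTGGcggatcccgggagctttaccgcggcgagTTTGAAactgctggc
Mcm6 (chr1:128359706-128359955, minus strand): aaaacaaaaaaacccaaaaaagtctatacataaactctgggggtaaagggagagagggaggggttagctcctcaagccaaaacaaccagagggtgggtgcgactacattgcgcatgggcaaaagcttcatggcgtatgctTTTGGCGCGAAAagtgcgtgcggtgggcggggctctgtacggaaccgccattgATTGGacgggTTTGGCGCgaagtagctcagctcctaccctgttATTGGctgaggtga
Mcm5 (chr8:75109259-75109508, plus strand): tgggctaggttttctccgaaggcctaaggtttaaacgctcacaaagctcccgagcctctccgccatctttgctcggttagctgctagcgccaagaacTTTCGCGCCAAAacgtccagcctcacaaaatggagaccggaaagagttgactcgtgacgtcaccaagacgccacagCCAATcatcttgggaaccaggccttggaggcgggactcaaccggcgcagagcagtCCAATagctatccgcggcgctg
Mcm7 (chr5:138171884-138172133, minus strand): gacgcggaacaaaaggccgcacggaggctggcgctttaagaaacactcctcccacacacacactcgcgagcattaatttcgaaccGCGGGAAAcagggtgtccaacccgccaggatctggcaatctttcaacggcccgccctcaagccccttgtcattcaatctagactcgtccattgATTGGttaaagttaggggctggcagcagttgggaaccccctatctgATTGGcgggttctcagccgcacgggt
Cdk1 holds both kinds of letters, with TTTGAA at 2 places and TTTCGCGC once. In Mcm5 and Mcm6 the forms TTTGGCGC and TTTCGCGC overlap on opposite strands, which makes a capital run longer than either.

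Summed FPKM ran from 500126 to 662936 per embryo and the read depth is unknown. Embryo markers were present, for example 4 of 4 heart and 4 of 4 neural progenitor genes at a mean of 1 FPKM or more. Of the trophoblast markers 0 of 5 reached it, with summed levels of 0.34 to 1.02 FPKM in xHet and 0.33 to 4.69 FPKM in xHomo embryos, and of the decidual markers 0 of 2, with at most 0.18 FPKM. Of the adult globin markers 1 of 2 reached it. Their summed levels were 13.67 to 20.26 FPKM in xHet and 9.07 to 18.83 FPKM in xHomo embryos, and their source was not tested. Xist exceeded 10 FPKM in 5 of 10 xHomo and 0 of 3 xHet embryos, which leaves the sexes unequally spread over the groups, and none of the 33 genes lies on the X chromosome. One library stood apart: in xHomo embryo 3, 10.2% of all genes departed by 1 log2 unit or more from the average of the xHet embryos, against 1.45% to 4.56% in the other xHomo embryos.

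Levels of the 33 genes spanned a wide range on the FPKM scale, which is per length. Pcna was the highest with 324 ± 33.6 FPKM (SD, n = 3) in xHet embryos, followed by Rrm2 with 175 ± 9.497 and Mcm7 with 129 ± 9.34 FPKM. Ccne2 was the lowest with 5.79 ± 0.643 FPKM, below Cenpf with 15.5 ± 0.809 and Cenpe with 15.7 ± 0.531 FPKM. The median over the mitotic genes was 42.6 FPKM and over the replication genes 69.3 FPKM, and that of all genes tested was 9.85 FPKM. The loci listed for Kif20a and Ccne2 span 53.1 and 62.9 kb, where RefSeq gives genes of 8.65 and 14.3 kb, and those of Ccna2 and Cdc20 are also over 2 times the RefSeq length. Whether fragments of overlapping genes entered these 4 values was not tested.

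The comparison of xHomo with xHet embryos asked whether these transcripts differ with the label. None of the 33 passed in limma at an adjusted p of 0.05 (smallest adjusted p = 0.486), where 0.0235% of all genes tested did. Before adjustment, limma put 6 members under p = 0.05 (Ccnb2, Nusap1, Ube2c, Mcm3, Mcm6 and Birc5), where 9.35% of all genes were. All 6 had the higher mean in xHomo embryos, a side that held 7.63% of all genes. On the lower side it was 0 members, against 1.72% of all genes. An exact permutation test per gene put 6 members at an unadjusted p under 0.05, where 1196 of all 12755 genes were. After adjustment it passed 0 members, but also 0 of all 12755 genes. Its smallest possible p is limited by the number of ways to split the embryos, so this 0 says little about the members. No member had all xHomo values above or all below the xHet values, against 1.66% and 0.58% of all genes. The mean was higher in xHomo embryos for 28 of 33 members, against 59.7% of all genes. It was higher for 23 after median-of-ratios scaling, 20 after quantile normalization and 19 after TPM rescaling. The share of all genes was not counted after these rescalings, which also lowered the median change of all genes. The 95% intervals of limma for the members reached from -0.79 (Mki67) to 0.51 log2 units (Ube2c). Array weights, which give noisier libraries less weight, ended this: 10 of 33 members then passed in limma, all higher in xHomo embryos. Of all genes 21.8% passed with these weights, 18.6% on the higher side. These were Ccnb2, Birc5, Mcm3, Ube2c, Mcm6, Nusap1, Mcm2, Bub1b, Ttk and Cdk1. The median log2 change was 0.12 over the mitotic and 0.045 over the replication members, against 0.046 over all genes tested, and the replication median lay below 0 under all 3 rescalings. After median-of-ratios scaling, quantile normalization and TPM rescaling the mitotic median was 0.074, 0.050 and 0.046, and that of all genes 0.0042, 0.011 and -0.024.

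**Figure D1:**
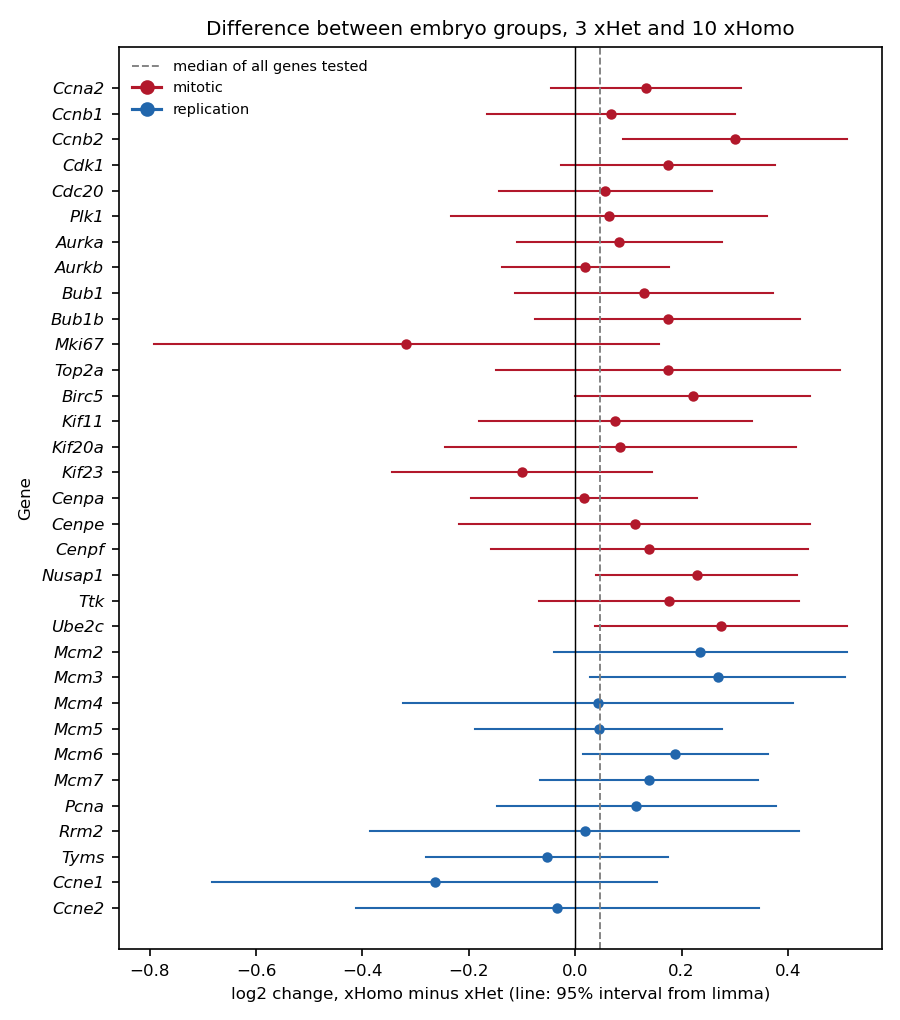
Log2 change of each gene (horizontal axis, xHomo minus xHet mean of log2(FPKM+1)) with its 95% interval from limma, for 22 mitotic and 11 replication genes. Most points lie between 0 and 0.30 and Mki67 lies lowest at -0.32, and the dashed line is the median of all genes tested, 0.046.

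Among the cyclins of mitosis and their kinase, Ccnb2, which encodes cyclin B2 (mm9 chromosome 9, 70255495 to 70269361 as the deposited table gives it), had the smallest p of all members. Its level was 40.0, 37.0 and 36.9 FPKM in embryos xHet 1 to 3 and ran from 38.5 to 54.9 FPKM with a median of 48.1 in the xHomo embryos. Of the 10 xHomo embryos 9 lay above every xHet value, and xHomo embryo 2 lay within their range. The log2 difference was 0.30 (SE 0.10; p = 0.486 after adjustment in limma). Cdk1, the kinase that drives entry into mitosis (chromosome 10, 68799382 to 68815660), stood at 49.1, 42.3 and 45.1 FPKM in xHet embryos and at 44.4 to 61.6 FPKM with a median of 52.4 in xHomo embryos. The groups overlapped in 4 of 10 xHomo embryos and the log2 change was 0.17 (SE 0.09; p = 0.575 after adjustment in limma).

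Ccna2, the cyclin of both S phase and mitosis (chromosome 3, 36451527 to 36470918), varied little among xHet embryos, at 70.9, 71.2 and 69.4 FPKM. In xHomo embryos it was 70.8 to 88.1 FPKM with a median of 75.8, and 8 of 10 lay above the xHet range. The log2 difference was 0.13 (SE 0.08; p = 0.616 after adjustment in limma). Ccnb1, which encodes cyclin B1, was the more abundant B cyclin at 110 ± 6.24 FPKM among xHet embryos against 116 ± 14.1 FPKM (SD, n = 10) among xHomo embryos. Unlike Ccnb2 it had 6 of 10 xHomo embryos inside the xHet range, and its sign turned after quantile normalization and TPM rescaling. Whether the B cyclins differ in their change was not tested.

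Of the mitotic kinases and checkpoint genes, none passed. Plk1, which acts from mitotic entry to exit, Aurka of the spindle poles and Aurkb of the chromosomal passenger complex had log2 changes of 0.06, 0.08 and 0.02. Bub1, Bub1b and Ttk, which hold the spindle checkpoint, had 0.13, 0.17 and 0.18. Their limma adjusted p ran from 0.629 (Ttk) to 0.945 (Aurkb). Aurkb was the steadiest member among xHomo embryos, at 37.2 to 44.3 FPKM, with an SD of 0.068 on the log2 scale, and its sign turned under all 3 rescalings. Ttk stood at 19.2, 19.1 and 20.0 FPKM in xHet embryos, and 9 of 10 xHomo embryos lay above that and xHomo embryo 3 below it at 17.3 FPKM.

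The partners of the anaphase-promoting complex, the ubiquitin ligase that ends mitosis, were Ube2c and Cdc20. Ube2c, its ubiquitin-conjugating enzyme (chromosome 2, 164595428 to 164598402), was 134, 122 and 120.1 FPKM in the xHet embryos and ranged from 121 to 174 FPKM with a median of 155 in xHomo embryos. All but xHomo embryo 2 lay above the xHet range. The log2 difference was 0.27 (SE 0.11; p = 0.513 after adjustment in limma). Cdc20, its activator, stood at 85.6 ± 5.92 and 89.2 ± 8.34 FPKM, with 6 of 10 xHomo embryos inside the xHet range. Its log2 change of 0.06 turned below 0 after quantile normalization and TPM rescaling.

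Of the genes for motors, centromeres and chromosome structure, Nusap1 and Birc5 had the smallest p. Nusap1, which encodes a microtubule-binding protein of the spindle (chromosome 2, 119435267 to 119475896), was 19.7, 20.5 and 22.9 FPKM in the xHet embryos and ranged from 22.4 to 29.0 FPKM with a median of 24.5 in xHomo embryos. Of these 8 lay above the xHet range, and the log2 change was 0.23 (SE 0.09; p = 0.505 after adjustment in limma). Birc5, which encodes survivin of the passenger complex (chromosome 11, 117710550 to 117717057), was 77.1, 65.4 and 68.5 FPKM in the xHet embryos and ranged from 71.2 to 104 FPKM with a median of 81.4 in xHomo embryos. The 104 FPKM of xHomo embryo 3 was the highest. The log2 change of Birc5 was 0.22 (SE 0.10; p = 0.531 after adjustment in limma).

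The kinesin genes Kif11, Kif20a and Kif23 and the centromere genes Cenpa, Cenpe and Cenpf had log2 changes from -0.10 (Kif23) to 0.14 (Cenpf). Top2a, the topoisomerase that untangles sister chromatids, had 0.17, with 102 ± 2.998 FPKM among xHet embryos against 117 ± 22.5 FPKM among xHomo embryos. Their limma adjusted p ran from 0.729 (Top2a) to 0.967 (Cenpa).

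Mki67, which encodes the proliferation marker Ki-67 that coats mitotic chromosomes (chromosome 7, 142881470 to 142908062), had a lower mean in xHomo embryos. It was at 60.2, 55.5 and 57.0 FPKM in the xHet embryos and ranged from 25.1 to 61.8 FPKM with a median of 48.4 in xHomo embryos. Embryos 4, 5 and 6 of the xHomo group lay above the xHet range and the other 7 below it, with none inside. Its SD among xHomo embryos, 0.41 on the log2 scale, was the largest of the mitotic genes, and the log2 change was -0.32 (SE 0.22; p = 0.658 after adjustment in limma). Kif23 was the other mitotic gene with a lower mean, at 28.1 ± 0.242 FPKM among xHet embryos against 26.3 ± 3.36 FPKM among xHomo embryos.

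The replication members opened with the MCM helicase, the ring of 6 related subunits loaded at origins. Mcm3 (chromosome 1, 20793094 to 20810294) was 73.3, 68.8 and 65.9 FPKM in the xHet embryos and ranged from 70.8 to 105 FPKM with a median of 80.9 in xHomo embryos. All but xHomo embryo 3 lay above the xHet range, and the log2 change was 0.27 (SE 0.11; p = 0.518 after adjustment in limma). Mcm6 (chromosome 1, 130228167 to 130256233) was 86.9, 77.4 and 79.8 FPKM in the xHet embryos and ranged from 85.2 to 107 FPKM with a median of 92.5 in xHomo embryos, 8 of them above the xHet range. Its log2 change was 0.19 (SE 0.08; p = 0.518 after adjustment in limma).

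Mcm2 (chromosome 6, 88833467 to 88848774) was 68.6, 61.2 and 55.5 FPKM in the xHet embryos and ranged from 57.7 to 93.8 FPKM with a median of 69.4 in xHomo embryos, and the groups overlapped in 3 of 10 xHomo embryos. Its log2 change was 0.23 (SE 0.13; p = 0.578 after adjustment in limma). Mcm7 (chromosome 5, 138605816 to 138613090) was 139.9, 122.8 and 124.8 FPKM in the xHet embryos and ranged from 129 to 169 FPKM with a median of 137 in xHomo embryos, and their log2 difference was 0.14 with an SE of 0.10 (adjusted p = 0.654 in limma). Mcm4 and Mcm5 had changes of 0.043 and 0.045 that turned below 0 under all 3 rescalings. The 6 subunits work as 1 complex and the SD among xHomo embryos on the log2 scale was 0.30 for Mcm4 and 0.097 for Mcm6.

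Pcna, the sliding clamp (chromosome 2, 132075021 to 132078916), was 361, 313 and 296 FPKM in the xHet embryos and ranged from 296 to 423 FPKM with a median of 334 in xHomo embryos. The groups overlapped in 6 of 10 xHomo embryos, and the log2 change was 0.12 (SE 0.12; p = 0.786 after adjustment in limma). For nucleotide supply, Rrm2 encodes the small subunit of ribonucleotide reductase and Tyms thymidylate synthase. Rrm2 stood at 183, 178 and 165 FPKM in xHet embryos and ranged from 109 to 251 FPKM in xHomo embryos, 5 above and 5 below the xHet range. Tyms stood at 32.7 ± 3.69 and 31.6 ± 3.43 FPKM, with 7 of 10 xHomo embryos inside the xHet range.

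The E cyclins, which bring CDK2 to the start of S phase, were the replication members with the widest spread beside Rrm2 and Mcm4. Ccne1 (chromosome 7, 38883002 to 38892509) was 45.7, 38.3 and 43.1 FPKM in the xHet embryos and ranged from 18.2 to 42.8 FPKM with a median of 37.8 in xHomo embryos. Embryo xHomo 9 lay at 18.2 FPKM and the next lowest, xHomo embryo 8, at 31.4 FPKM. No xHomo embryo exceeded the highest xHet value and 5 lay below the lowest. The log2 difference was -0.26 (SE 0.20; p = 0.679 after adjustment in limma), and -0.16 without xHomo embryo 9. Ccne2 was 5.91, 6.37 and 5.10 FPKM in the xHet embryos and ranged from 3.40 to 7.33 FPKM in xHomo embryos, again with xHomo embryo 9 lowest.

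**Figure D2:**
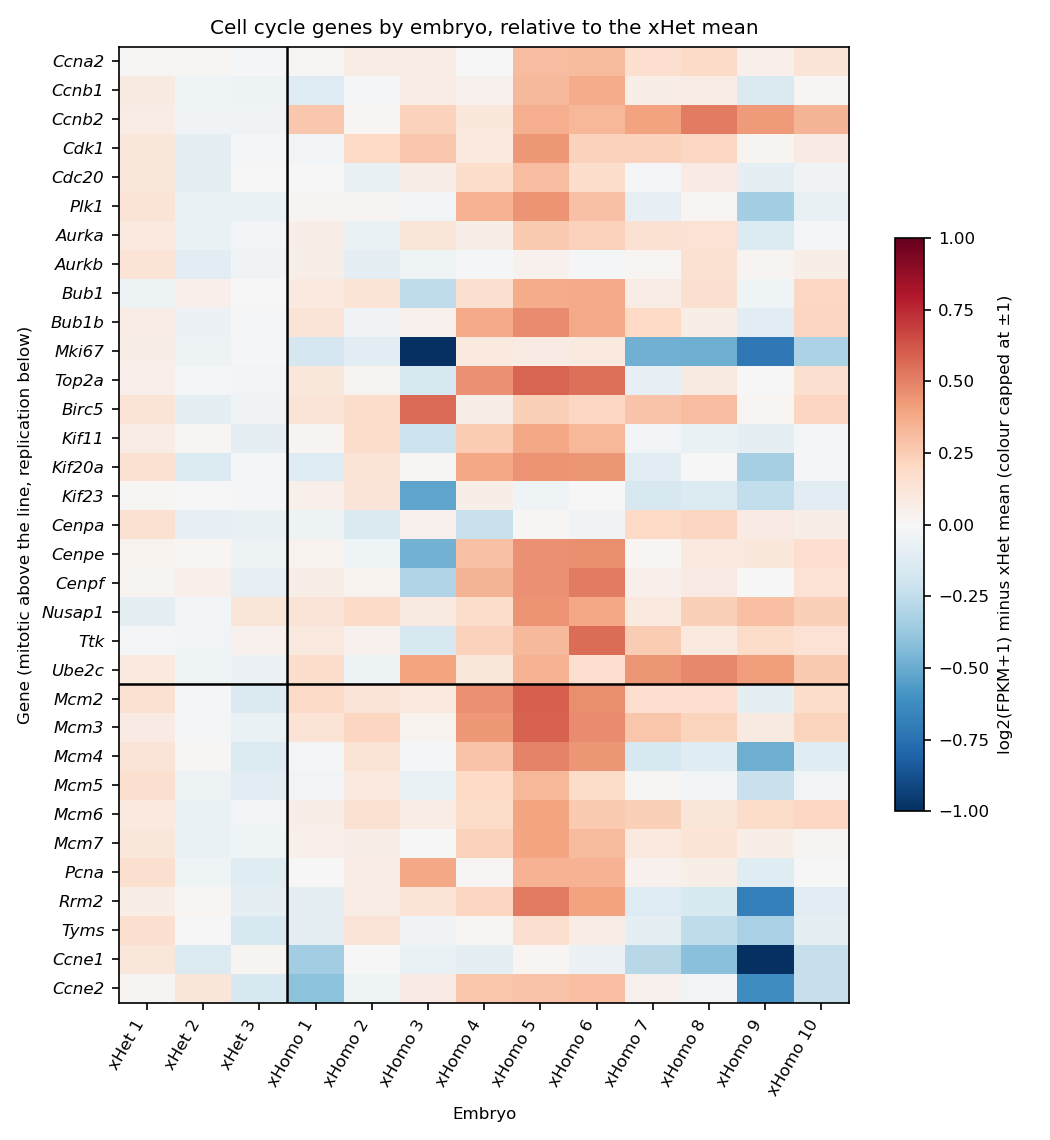
Each row is a gene and each column an embryo, and colour gives log2(FPKM+1) minus the mean of the 3 xHet embryos, capped at 1 log2 unit. Columns xHomo 5 and xHomo 6 are red in most rows, xHomo 9 is blue in most rows below the line, and xHomo 3 is blue for Mki67 and red for Birc5 and Pcna.

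Embryo xHomo 5 had the highest xHomo value for 18 of 33 members, against 18.8% of all genes, and lay above every xHet value for 29 members, against 60.5% of all genes. Embryo xHomo 6 lay above every xHet value for 28 members, against 51.2%. The 3 highest xHomo values belonged to embryos 4, 5 and 6 for 16 of 33 members, against 17.95% of all genes, a trio singled out after its values were seen. The class medians show the same embryos: relative to the xHet mean the mitotic median was 0.36 and 0.32 log2 units in xHomo embryos 5 and 6, and at most 0.13 in the other xHomo embryos. The replication median was 0.39, 0.32 and 0.21 in xHomo embryos 5, 6 and 4.

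The median over all genes was also shifted there, at 0.17, 0.11 and 0.098 in xHomo embryos 5, 6 and 4. The 5 markers of postmitotic neurons stood at medians of 0.88, 0.90 and 0.99 in these embryos, summed levels of all xHomo embryos running from 30.9 to 105.7 FPKM against 45.8 to 54.1 FPKM in xHet embryos. The 4 primitive red cell markers stood at 0.20, -0.81 and -1.10. Their part in the levels of the 33 genes was not tested. Among the xHet embryos, embryo 1 was the highest for 27 of 33 members, against 55.9% of all genes.

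The mitotic and the replication medians were farthest apart in xHomo embryo 9. There the replication median was -0.23 log2 units from the xHet mean and the mitotic median 0.0039, a gap of 0.23. In the xHet embryos the gap, mitotic minus replication, was -0.041, -0.032 and 0.080, and in the other 9 xHomo embryos it ran from -0.081 to 0.13. As group means the gaps differed by 0.037, less than the SD of 0.10 among xHomo embryos. Single embryos decided this value, which was -0.0021 without xHet embryo 1, 0.071 without xHet embryo 3 and 0.016 without xHomo embryo 9. In xHomo embryo 9, 8 of 11 replication members had their lowest xHomo value, against 7 of 22 mitotic members and 11.9% of all genes. The lowest of these relative to xHet were Ccne1 (18.2 FPKM), Rrm2 (109 FPKM), Ccne2 (3.40 FPKM) and Mcm4 (39.2 FPKM). Yet Mcm3 at 73.8 and Mcm6 at 92.3 FPKM were above every xHet value in the same embryo. Of the 22 mitotic genes 6 lay above every xHet value there and 8 below, against 47.0% and 30.8% of all genes. Ccnb2 (51.3 FPKM), Ube2c (167 FPKM) and Nusap1 (26.1 FPKM) were among the 6, and Plk1 (47.8 FPKM) and Mki67 (34.6 FPKM) among the 8.

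**Figure D3:**
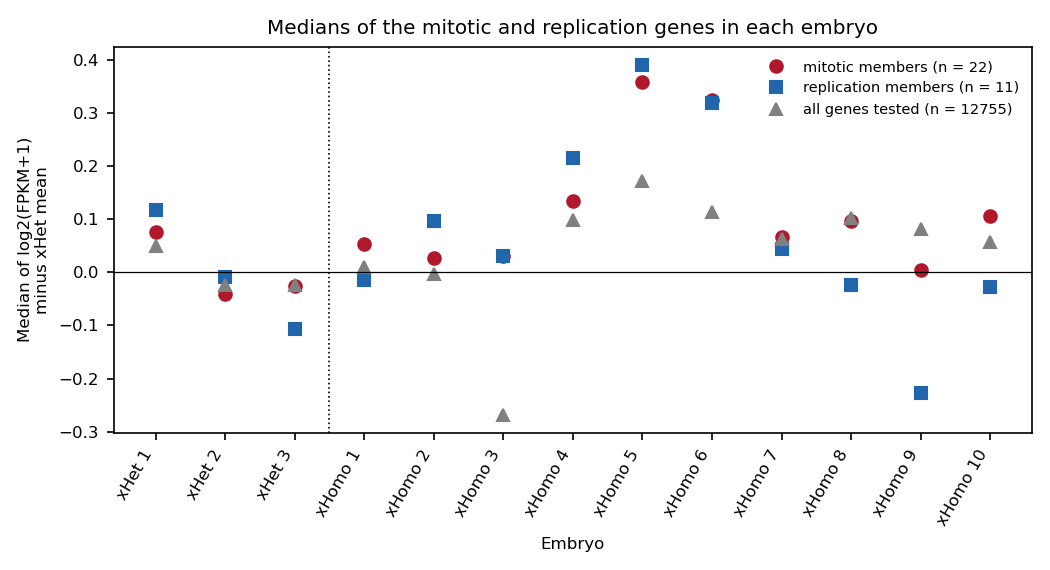
For each embryo on the horizontal axis, the vertical axis gives the median over the mitotic, the replication and all tested genes of log2(FPKM+1) minus the xHet mean. Both classes lie highest in xHomo 5 and xHomo 6, and the replication median is lowest in xHomo 9, at -0.23.

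In xHomo embryo 3, the library that stood apart, levels were lower for longer transcripts. Genes with a GENCODE M21 length were split by it into 4 bins of about equal gene number. Over all of them the median difference of this embryo from the xHet mean was 0.041 in the shortest bin and -0.19, -0.31 and -0.46 in the next bins. Over the members the medians were 0.23, 0.073, 0.015 and -0.26 for 5, 7, 15 and 6 genes. Of 3 ways tried to pick the transcript, this one gave the strongest Pearson r across the 33 members, -0.73 with log2 length, against -0.62 with the longest transcript and -0.49 with the lowest numbered one. The choice was made after these were seen. Over all 10929 genes r was -0.38, -0.38 and -0.37, and with the longest transcript the members' shortest bin, at 0.060, was no longer above the next, at 0.073. Genes share the library and are not replicates, so these are descriptions. Mki67, with a transcript of 10061 bases, was 25.1 FPKM there and Cenpe, with 7910 bases, 11.01 FPKM. Kif23, with 3398 bases and so in length bin 3 of 4, was 19.1 FPKM. Each was the lowest of the xHomo embryos. Cdk1, with 4375 bases in the longest bin, went the other way, at 0.27 log2 units above the xHet mean. Birc5 at 104 FPKM and Pcna at 423 FPKM, with transcripts of 947 and 1518 bases, were each the highest. Without xHomo embryo 3 the mean change of Mki67 was -0.22 and that of Birc5 0.18, and 0 of 33 members passed in limma. Other embryos also varied with length. Over all genes r was -0.30 in xHomo 7, -0.29 in xHomo 8, -0.21 in xHomo 9, -0.18 in xHomo 1, -0.16 in xHomo 10 and -0.20 in xHet 1, and 0.21 in xHomo 4. Across the members it was -0.39 and -0.36 in xHomo 7 and 8, and 0.47, 0.27 and 0.35 in xHomo 4, 5 and 6, the embryos with the highest class medians. In the xHet embryos the members' r was -0.38, 0.42 and -0.00048. The part of length in the differences between embryos or groups was not tested.

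**Figure D4:**
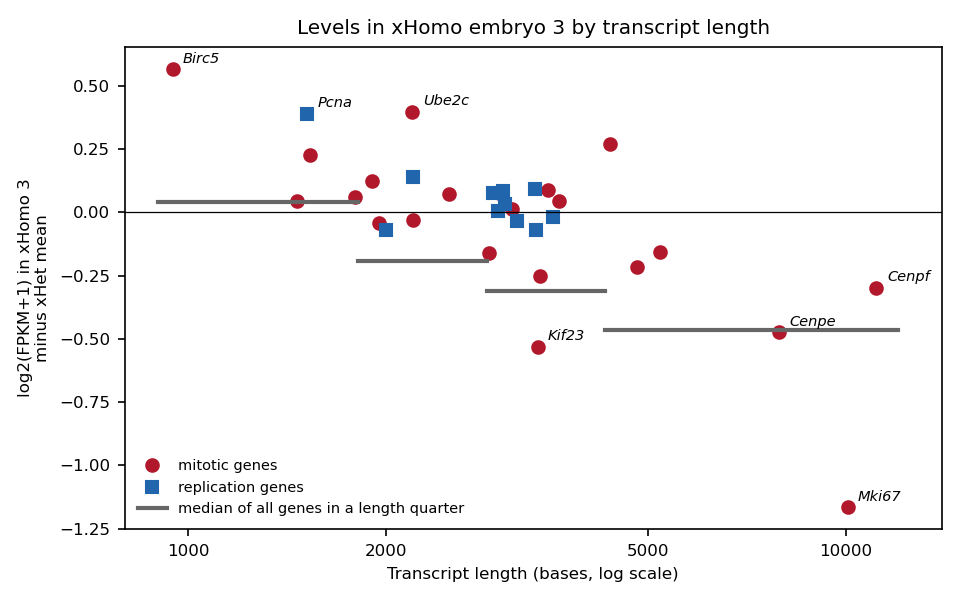
Level in xHomo embryo 3 minus the xHet mean (vertical axis, log2(FPKM+1)) against transcript length in bases (horizontal axis, log scale), with 1 point per gene and grey lines at the medians of all genes in each of 4 length bins. The grey lines step down from 0.041 to -0.46, and Mki67 lies lowest at -1.16.

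Spread among the 10 xHomo embryos had a median SD of 0.18 on the log2 scale for both classes, against 0.23 for all genes tested. Among the 3 xHet embryos it was 0.082 for the mitotic and 0.13 for the replication genes, against 0.098 for all genes. The widest spread among xHomo embryos was that of Mki67 (0.41), followed by Ccne1 (0.35), Rrm2 (0.34), Ccne2 (0.31) and Mcm4 (0.30).

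The wider pathway was described with lists of related genes, and 0 genes of these lists passed in limma in either direction. Counts of higher means in these lists stand beside 59.7% of all genes tested. Of 13 genes of origin licensing, which mark where replication begins, 7 had a higher mean in xHomo embryos, and the list median was 0.0047 log2 units. Of 30 replisome genes 17 were higher in mean, with a median of 0.0055. Lig1, the ligase that joins Okazaki fragments, had the smallest p there, at 52.5 ± 2.64 FPKM among xHet embryos against 64.3 ± 5.42 FPKM among xHomo embryos (adjusted p by limma, 0.481). Pola1, of the polymerase that starts each strand, stood at 10.03 ± 0.516 and 12.3 ± 2.11 FPKM, and Rfc1, of the clamp loader, at 22.7 ± 1.89 and 26.5 ± 3.53 FPKM. For 12 genes of nucleotide synthesis the median was 0.097, with Dctpp1, Impdh2 and Shmt1 first by p (adjusted p by limma, 0.531, 0.604 and 0.647).

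For other mitotic genes, 46 were measured of 48 listed. Of these 26 had a higher and 20 a lower mean, with a median of 0.029, beside 0.12 for the members and 0.046 for all genes. Cep55 and Anln, both of cytokinesis, stood at 23.4 ± 0.784 and 19.97 ± 2.504 FPKM and at 18.4 ± 0.878 and 15.9 ± 2.20 FPKM in xHet and xHomo embryos (adjusted p by limma, 0.555 and 0.589). Cdca8, of the passenger complex, stood at 69.8 ± 3.57 and 77.9 ± 5.81 FPKM. Condensin and cohesin genes, which shape and hold chromosomes, had a median of 0.15 with 11 of 13 higher in mean, Smc4, Ncaph and Smc3 first by p (adjusted p by limma, 0.531, 0.582 and 0.584). Anaphase-promoting complex genes had 0.070 with 12 of 15 higher in mean, among them Ube2s, Anapc13 and Anapc7 with an unadjusted p under 0.05 (adjusted p by limma, 0.498, 0.501 and 0.518). These 3 of 15 stand beside 9.35% of all genes, or 7.63% on the higher side.

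Upstream of the members, E2f1, an E2F activator of S phase genes, stood at 17.4, 15.6 and 14.7 FPKM in xHet embryos and 8.60 to 15.4 FPKM in xHomo embryos. Of the 10 xHomo embryos 9 lay below every xHet value (log2 change -0.44, SE 0.15, limma adjusted p = 0.494). Foxm1, an activator of mitotic genes, lay below every xHet value in 9 of 10 as well, at 29.3 ± 1.29 and 25.9 ± 3.16 FPKM (adjusted p by limma, 0.640). The share of all genes with 9 of 10 below was not counted. The stricter count, 10 of 10 below, which neither gene met, held for 0.58% of all genes. In single xHomo embryos, from 14.2% (xHomo 5) to 62.3% (xHomo 3) of all genes lay below every xHet value. Of the 16 E2F, DREAM and related regulators 13 had a lower mean in xHomo embryos, against 5135 of all 12755 genes. Their median was -0.064, and E2f5 was among the 3 higher ones at 25.7 ± 0.647 and 29.7 ± 4.11 FPKM (adjusted p by limma, 0.611). Of 10 regulators of the step from G1 to S 8 had a higher mean, with Ccnd3 at 57.1 ± 3.09 and 69.3 ± 7.55 FPKM, Cdk4 at 378 ± 41.1 and 420.4 ± 42.9 FPKM and Rbl2 at 1.43 ± 0.110 and 1.195 ± 0.233 FPKM.

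The inhibitors of cyclin-dependent kinases had the largest median of the pathway lists, 0.52 log2 units over the 4 measured of 7. Cdkn1a, which encodes p21, was 3.48, 3.20 and 2.56 FPKM in the xHet embryos and ranged from 3.83 to 8.39 FPKM in xHomo embryos. Of these 10 of 10 lay above every xHet value, as was so for 1.66% of all genes (log2 change 0.54, SE 0.17, limma adjusted p = 0.481). Cdkn2d, which encodes p19 of the INK4 family, stood at 6.08 ± 0.117 and 9.13 ± 1.55 FPKM (log2 change 0.50, limma adjusted p = 0.449). The imprinted Cdkn1c, which encodes p57, stood at 69.8 ± 4.04 and 107 ± 32.6 FPKM (adjusted p by limma, 0.494), and Cdkn1b, which encodes p27, at 11.4 ± 0.568 and 14.6 ± 3.42 FPKM (adjusted p by limma, 0.569). Below the filter, Cdkn2c stood at 1.32 ± 0.342 and 0.871 ± 0.414 FPKM, and Cdkn2a and Cdkn2b at no more than 0.32 FPKM in any embryo. The replication-dependent histone genes were listed as a measure of RNA quality and not as part of the pathway. Of these, 56 of 56 measured had a higher mean in xHomo embryos, against 59.7% of all genes. Their list medians were 0.090 to 1.12 by xHomo embryo and -0.084 to 0.092 in xHet embryos, and the cause was not tested. Marker lists of cell types also differed in mean, with 0 genes past the test. All 5 genes of postmitotic neurons were higher in xHomo embryos (median 0.40, by embryo -0.52 to 0.99). All 3 of endothelium were lower (median -0.38, by embryo -1.51 to 0.012). Medians were 0.21 for heart, -0.20 for somites and -0.45 for the 1 adult globin gene measured. They were 0.018, -0.054 and 0.022 for neural progenitors, primitive red cells and endoderm. Only heart and adult globin held a marker with an unadjusted p under 0.05 in limma, 1 each (p = 0.030 and 0.034), against 9.35% of all genes. Summed endothelial levels were 77.5 to 81.9 FPKM in xHet and 27.1 to 78.6 FPKM in xHomo embryos. Their part in the differences above was not tested.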

How the data were processed

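Total RNA of 13 embryos was purified on columns with DNase treatment, and directional libraries were made from poly(A) RNA, per the labels' protocols. The authors deposited FPKM values per gene and sample with mm9 loci. The tools named are bcl2fastq 1.8.2, TopHat and Cufflinks, as the submitters' processing notes list them. Annotation, filters and counting strand were not given in the sources used here. Values are rounded to steps of 0.01 FPKM and hold no counts, so depth is unknown. FPKM is a share, so a few abundant RNAs can shift all other genes.

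Groups came from the sample titles. Genes with a mean of at least 1 FPKM were fitted together in limma 3.58.1 (under R 4.3.3, two-sided, with lmFit and a trended eBayes) on log2(FPKM+1) without covariates, with Benjamini-Hochberg adjustment over 12755 genes. Changes are differences on this scale, which shrinks those of low genes. The step was tested on simulated data with equal noise in both groups and with planted changes larger than those of the members. It does not tell how often changes of the members' size would pass. Members and lists were chosen with earlier results of these data known, so list counts and medians are descriptions. Full values went to the 6 members of each class with the smallest p and the member with the largest SD among xHomo embryos. Elsewhere the 3 genes with the smallest p per list and all CDK inhibitors were named. Transcript lengths were those of the GENCODE M21 protein-coding transcript numbered 201, or else the longest, 1 of 3 definitions tried on these data. Promoters are from RefSeq. Python 3.11.15, pandas 2.3.3 and matplotlib 3.10.9 were used. Alternatives were other pseudocounts and filters, 3 rescalings, an Xist covariate, array weights, an exact permutation test, a replicate block and each embryo left out.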

Additional observations from a re-analysis of the deposited data

Results flagged for a closer look

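In Dixon's test on log2 values within the 10 xHomo embryos, the lowest value of Ccne1, 18.2 FPKM in xHomo embryo 9, lay apart from the others, its gap being 0.633 of the whole range. The highest value of Birc5, 104 FPKM in xHomo embryo 3, had a gap of 0.468 of the range. These were 2 of 33 genes, and with the class medians 36 sets of values were tested. By design the test flags about 1 in 20 independent sets. The sets here share the same embryos, so no expected number is given.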

How the results depend on the processing

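Over 24 alternatives, 17 of 33 genes kept the sign of their change and 16 did not in at least 1. Array weights, from a noise estimate for each library, gave 10 of the 33 genes and 33 of 159 other pathway genes (20.8%) past an adjusted p of 0.05 in limma, against 0 and 0 without weights and 21.8% of all genes with them. The cause was not tested. The count of the 33 stayed 0 in every other alternative, including each left-out embryo. The exact permutation test and the replicate block passed only 0 and 1 of all 12755 genes, so their 0 says little about the members. The replication median, 0.045, was -0.0021 after median-of-ratios scaling, -0.036 after quantile normalization, -0.033 after TPM rescaling and -0.0085 without xHet embryo 3. It was 0.12 without xHet embryo 1, 0.10 without xHomo embryo 9, 0.027, 0.013 and 0.029 without xHomo embryos 4, 5 and 6, and 0.039 to 0.065 without any other. With Xist as a covariate the mitotic and replication medians were 0.21 and 0.19, and that of all genes tested rose as well, from 0.046 to 0.085. The gap between classes and the spread were not computed for the covariate, weights, permutation and block settings.

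Deviations of xHet and xHomo embryos with equal replicate numbers correlated at -0.065, -0.040 and -0.038. Those with unequal numbers among embryos 1 to 3 correlated at -0.060 to 0.10. With 3 xHet embryos this check cannot show or exclude a shared litter or batch. Replicate numbers 4 to 10 exist only in the xHomo group, so the replicate block in effect compared xHomo embryos 1 to 3 with the xHet embryos. These include xHomo embryo 3, the library that stood apart. With this block the mitotic median was -0.0053, against -0.087 over all genes tested. Ccnb1 was -0.023, Cdc20 -0.0060, Aurkb -0.025, Bub1 -0.0066, Top2a -0.0047, Kif11 -0.0066, Cenpa -0.049, Cenpe -0.16, Cenpf -0.065, Ttk -0.0060 and Mcm5 -0.00077.

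Quantile normalization turned Ccnb1 to -0.031, Cdc20 to -0.054, Plk1 to -0.033, Aurkb to -0.045, Cenpa to -0.079, Mcm4 to -0.036, Mcm5 to -0.056 and Rrm2 to -0.11. TPM rescaling turned Ccnb1 to -0.010, Cdc20 to -0.021, Plk1 to -0.014, Aurkb to -0.058, Kif11 to -0.00029, Cenpa to -0.062, Mcm4 to -0.034, Mcm5 to -0.033 and Rrm2 to -0.060. Median-of-ratios scaling turned Aurkb to -0.027, Cenpa to -0.031, Mcm4 to -0.0035, Mcm5 to -0.0021 and Rrm2 to -0.029. The Xist covariate turned Cenpa to -0.017 and Ccne2 to 0.10, and array weights turned Rrm2 to -0.019. Leaving out 1 embryo at a time gave -0.033 to 0.086 for Aurkb, -0.025 to 0.092 for Cenpa, -0.026 to 0.11 for Mcm4, -0.0085 to 0.12 for Mcm5, -0.037 to 0.096 for Rrm2, -0.13 to 0.026 for Tyms and -0.11 to 0.032 for Ccne2. Read depth is unknown, so no counting error can be given.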
